A study of Mus musculus with 6 samples.

Results

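The 7 genes of the mouse NMDA receptor family (Grin1, Grin2a, Grin2b, Grin2c, Grin2d, Grin3a and Grin3b) were taken by gene symbol, and the rule that assigned sites to them used no methylation value. Every CpG site measured between 1 kb upstream of the gene start and the gene end was taken as a site of that gene, which gave 578 sites of the 890041 in the table. The dentate gyrus, the part of the hippocampus in which granule cells receive cortical input, had been micro-dissected, and its DNA methylation was read with RRBS (reduced representation bisulfite sequencing). The 6 mice were female C57BL/6JRj animals aged 4.5 months, 3 kept in standard cages (STD) with 5 animals per cage and 3 in an enriched environment (ENR). ENR mice had moved at an age of 6 weeks, for 3 months, into a larger enclosure with toys and tunnels shared by 10 animals. The groups thus shared strain, sex, age and tissue and differed in housing, including group size, and each library came from a different mouse. The cage or enclosure of each mouse is not given, so an effect of a shared cage cannot be told apart from that of housing. Each value is the percent of reads at a cytosine that were methylated. The number of reads behind a value is unknown beyond the minimum of 10 that the authors set, so no interval for counting error can be given. The table holds no transcript levels, so the labelled tissue could not be checked against marker genes, and expression of the receptor genes was not analysed here.

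NMDA receptors are glutamate-gated cation channels that typically open when glutamate and a co-agonist are bound and the membrane is depolarised, and they let calcium into the postsynaptic cell. In the dentate gyrus they are known for their part in long-term potentiation and in the survival of newborn granule neurons. Every receptor holds the obligatory GluN1 subunit (Grin1), which binds glycine or D-serine, together with glutamate-binding GluN2 subunits or glycine-binding GluN3 subunits. GluN2A (Grin2a) and GluN2B (Grin2b) are the main GluN2 subunits of the forebrain, with GluN2B prevailing early in life. GluN2C (Grin2c) is best known from the cerebellum and from astrocytes, GluN2D (Grin2d) from early development and interneurons, and GluN3A (Grin3a) and GluN3B (Grin3b) lower the calcium permeability of the channel. CpG methylation is typically low at CpG-rich promoters and high in the bodies of genes.

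RRBS reads short fragments that begin at CCGG, and all 578 sites lay within 75 bp of such a motif. The sites belonged to 489 CpGs, which is 4.34% of the 11260 CpGs in the 7 gene windows. Grin3b lies on the plus strand and the other members on the minus strand. In GRCm38 (mm10) with GENCODE M21 annotation, Grin1 (ENSMUSG00000026959) spans chr2:25291181-25319187 and had 34 sites. Grin2a (ENSMUSG00000059003) spans chr16:9567898-9995560 with 83 sites, and Grin2b (ENSMUSG00000030209) spans chr6:135713233-136173511 with 106 sites. These are the longest genes of the family, and 2.33% and 2.21% of their CpGs were measured. Grin2c (ENSMUSG00000020734, chr11:115249169-115267243) had 146 sites and Grin2d (ENSMUSG00000002771, chr7:45831883-45878378) had 112. Grin3a (ENSMUSG00000039579, chr4:49661611-49845744) had 65 sites and Grin3b (ENSMUSG00000035745, chr10:79970715-79977190) had 32. By annotation 211 sites lay in coding exons, 122 in UTRs, 43 in exons of noncoding transcripts of the same gene, 186 in introns and 16 upstream. Another gene's window also covered 134 of the sites, among them 70 of Grin2d (Kdelr1 and Gm45441), 36 of Grin2b (Gm26653 and Gm14329), 19 of Grin1 (Grin1os) and the 7 body sites of Grin3b (Tmem259).

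The sequences of 6 measured stretches are shown first because the levels described below differ sharply between them although some are of the same kind. A stretch is a run of sites at most 200 bp apart. Each is printed from the RefSeq copy of GRCm38 in the orientation of its gene, with the CpGs that were measured in capitals. Part of the last coding exon of Grin2d (chr7:45832853-45832996, minus strand, mean level 3.40%), of Grin2b (chr6:135732296-135732356, minus strand, 79.9%) and of Grin3b (chr10:79976942-79977011, plus strand, 67.9%) are followed by 2 neighbouring intronic stretches of Grin2b (chr6:135907658-135907782, 1.47%, and chr6:135908428-135908676, 46.9%, both minus strand) and by an exonic stretch of Grin1 (chr2:25311296-25311551, minus strand, 9.52%) at which the 2 housing groups did not overlap.
Grin2d, last coding exon: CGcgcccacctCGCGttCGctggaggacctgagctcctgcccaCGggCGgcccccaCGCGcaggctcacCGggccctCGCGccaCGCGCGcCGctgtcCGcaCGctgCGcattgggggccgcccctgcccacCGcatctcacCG
Grin2b, last coding exon: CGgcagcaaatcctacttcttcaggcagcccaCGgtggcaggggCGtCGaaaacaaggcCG
Grin3b, last coding exon: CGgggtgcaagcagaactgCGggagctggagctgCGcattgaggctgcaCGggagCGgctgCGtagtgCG
Grin2b, intron, low stretch: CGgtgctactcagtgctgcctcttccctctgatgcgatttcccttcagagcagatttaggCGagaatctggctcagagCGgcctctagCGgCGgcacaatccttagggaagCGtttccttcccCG
Grin2b, intron, partly methylated stretch: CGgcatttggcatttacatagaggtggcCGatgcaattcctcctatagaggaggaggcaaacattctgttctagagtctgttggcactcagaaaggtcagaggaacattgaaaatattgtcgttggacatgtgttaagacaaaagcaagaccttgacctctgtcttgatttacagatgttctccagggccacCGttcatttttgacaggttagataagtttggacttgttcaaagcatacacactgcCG
Grin1, exonic stretch: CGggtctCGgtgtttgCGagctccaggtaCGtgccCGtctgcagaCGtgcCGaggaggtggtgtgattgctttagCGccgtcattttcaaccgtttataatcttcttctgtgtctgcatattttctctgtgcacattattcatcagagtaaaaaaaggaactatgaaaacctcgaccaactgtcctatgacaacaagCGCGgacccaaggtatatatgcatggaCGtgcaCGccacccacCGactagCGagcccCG
Per 100 bases these stretches held 15.3 CpGs (Grin2d), 8.20 (Grin2b, last coding exon), 10 (Grin3b), 6.40 and 2.01 (the low and the partly methylated intronic stretch of Grin2b) and 7.03 (Grin1).

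Most NMDA receptor sites were nearly free of methylation. The mean over the 6 libraries was under 10% at 421 of the 578 sites (72.8%), above 80% at 38 and between these at 119. No methylated read was listed in any library at 129 sites (22.3%). By feature, the means of single libraries ranged from 2.36% to 4.76% in UTRs, from 6.97% to 11.3% in coding exons and from 27.7% to 34.7% in introns. Over the pooled sites introns were thus above coding exons and UTRs in each library, but the genes contribute different sites to each feature. In single libraries of Grin2b, coding exons (71.6% to 86.6%, 5 sites) were instead above introns (29.2% to 37.6%, 85 sites). Those 5 sites all lay in the last coding exon, and UTRs were still lowest (1.22% to 4.07%, 16 sites).

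**Figure D1:**
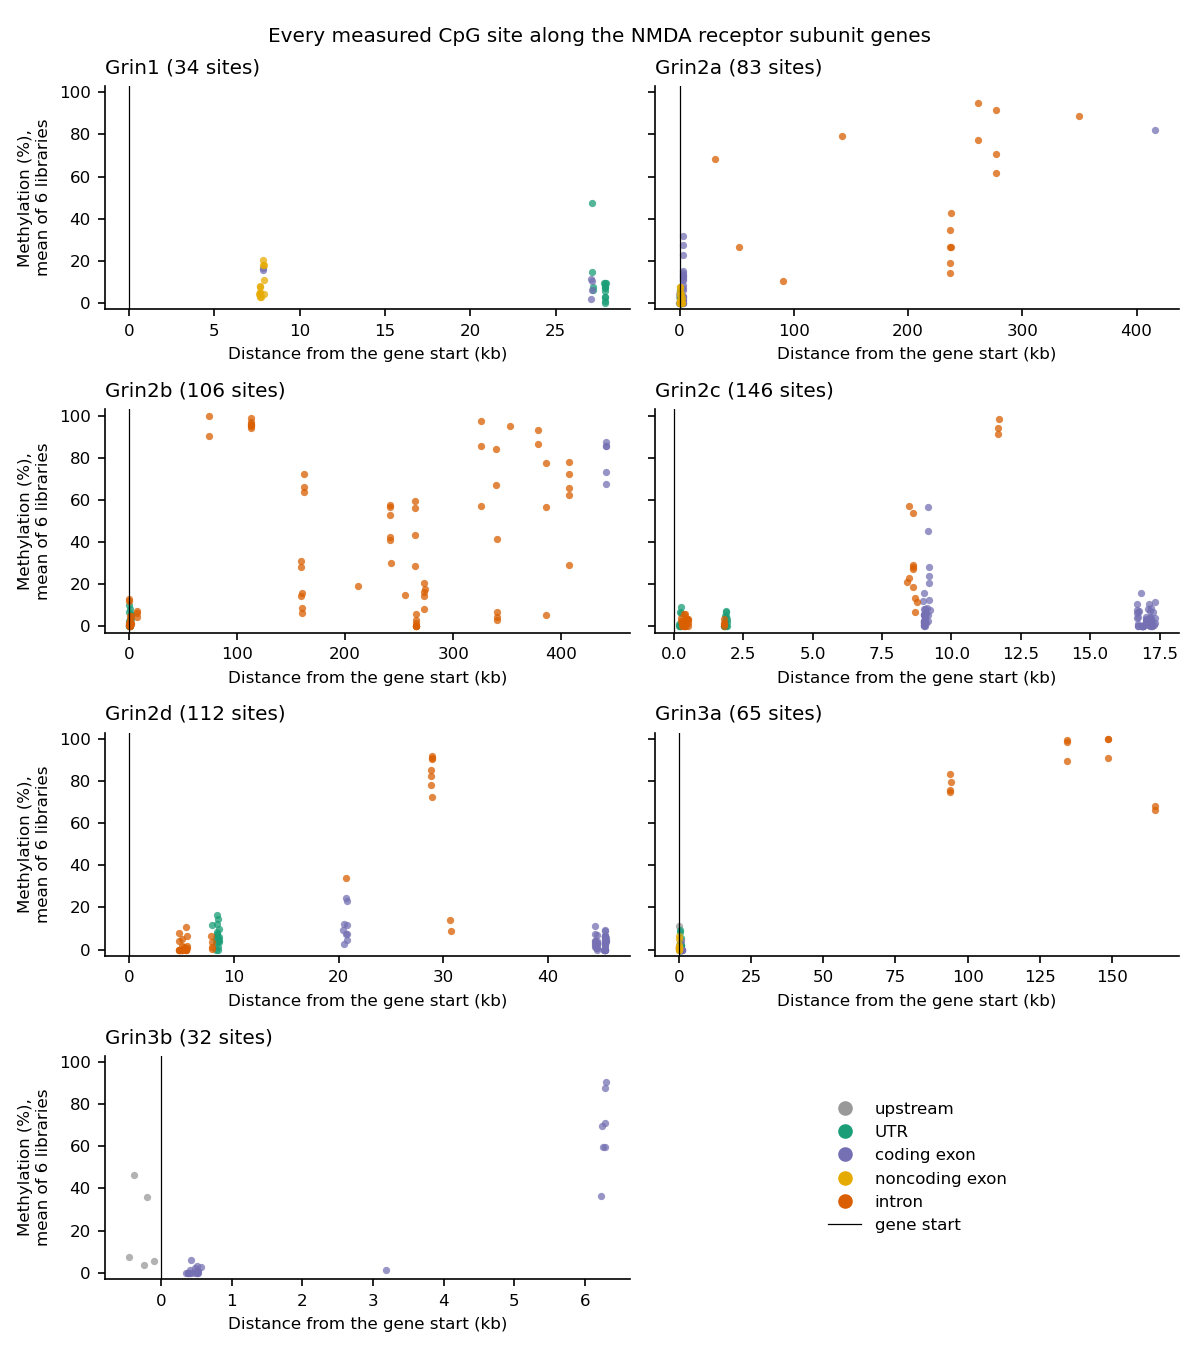
Methylation of every measured CpG site (percent, mean of 6 libraries) against its distance from the gene start in kb, 1 panel per NMDA receptor subunit gene, coloured by annotation. Sites near the start of Grin2a, Grin2b, Grin2c and Grin3a sit close to 0, 2 of the 5 sites just upstream of Grin3b lie higher, Grin1 and Grin2d have no site near the start, intronic sites of Grin2a, Grin2b and Grin3a spread upwards, and the sites at the far end of Grin2c and Grin2d sit near 3% again.

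Promoters, taken as sites within 1 kb of the start of any transcript, were measured in 6 of the 7 members. Grin1, the gene of the obligatory subunit, had no site there, its nearest site lying 7636 bp from the gene start. Averaged over libraries, the lowest promoter was that of Grin3a (1.5%, 53 sites), followed by Grin2c (2.25%, 47 sites), Grin2b (2.71%, 37 sites), Grin2a (4.26%, 66 sites), Grin3b (4.76%, 25 sites) and Grin2d (5.88%, 23 sites). The promoter sites of Grin2d belonged to transcripts that begin inside the gene record, since the nearest site to the record's own start lay 4735 bp away. The library ranges of neighbours in this order overlapped throughout, for example 1.08% to 1.71% for Grin3a and 1.27% to 3.92% for Grin2c. Over all 19240 genes with a measured promoter the median was 2.26%, and 76.0% of them were under 10%.

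The gene bodies fell into a low and a high set. Grin1 (9.17%, 34 sites), Grin2c (10.6%, 99 sites) and Grin2d (10.7%, 89 sites) were low, and their library ranges overlapped. Grin2b (47.0%, 69 sites), Grin2a (53.9%, 17 sites), Grin3b (67.9%, 7 sites) and Grin3a (85.5%, 12 sites) were high, and neighbours in this order overlapped as well. The highest library of the low set, STD 1 at Grin1, was at 18.3%, and the lowest of the high set, ENR 3 at Grin2a, was at 36.0%. Among 12285 genes with a measured body the median was 52.7%, and 12.5%, 13.6% and 13.7% of genes had a lower body than Grin1, Grin2c and Grin2d. At the other end 80.9% of genes had a lower body than Grin3a. The body means rest on different kinds of sequence, because coding exons gave most sites of Grin2c and Grin2d and introns gave all 12 body sites of Grin3a.

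**Figure D2:**
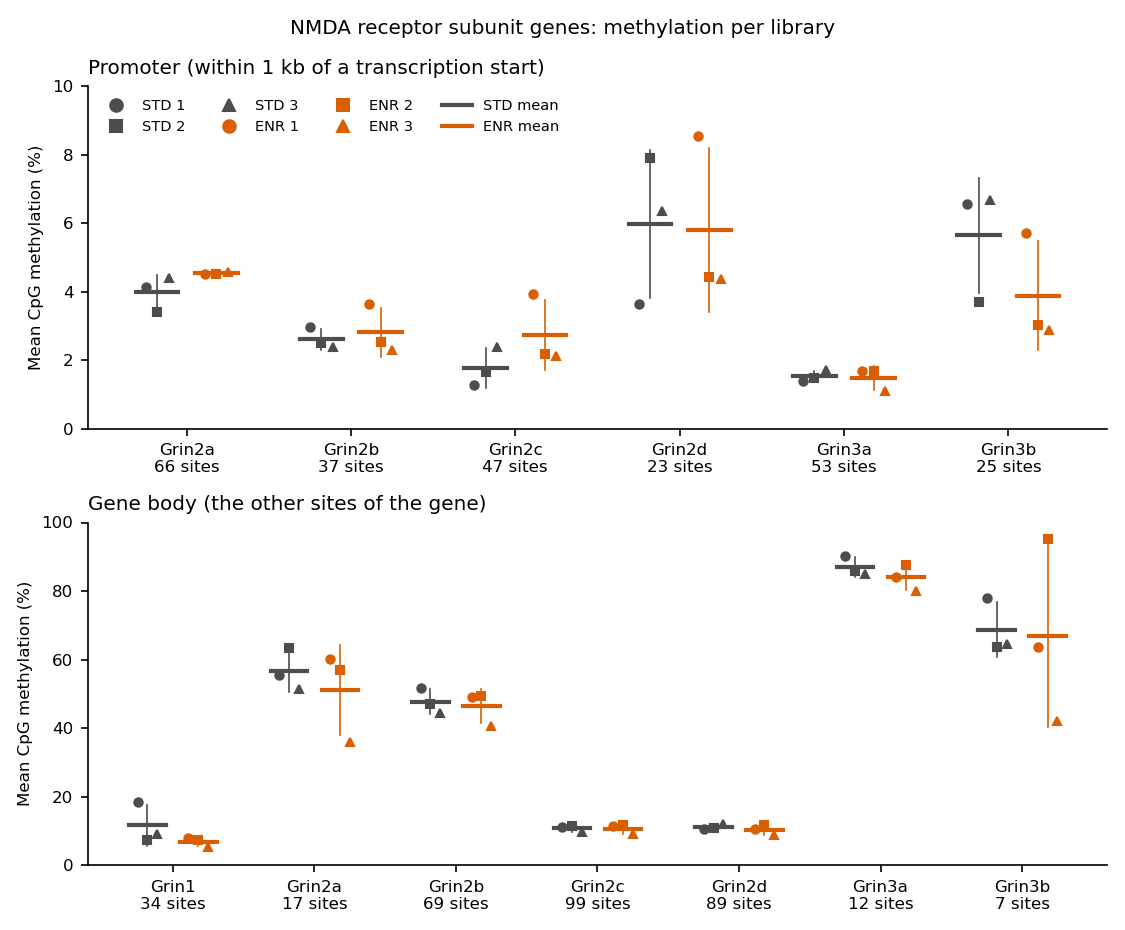
Mean CpG methylation (percent) of the promoter (upper panel, axis to 10%) and gene body (lower panel, axis to 100%) of each member in each library, with horizontal bars for the group means and vertical lines for ± SD (n = 3). Promoters lie between 1.08% and 8.55%, bodies form a low set (Grin1, Grin2c, Grin2d) and a high set, and the STD and ENR points overlap except at the promoter of Grin2a.

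In each of the 6 members with both parts, the promoter was below the body in all 6 libraries. The body minus promoter gap was 84.0 percentage points for Grin3a, 63.1 for Grin3b, 49.6 for Grin2a, 44.3 for Grin2b, 8.39 for Grin2c and 4.85 for Grin2d. The exact sign-flip permutation test over libraries gave p = 0.03125 for each, the smallest value that 6 libraries allow. This test covers the spread between mice only, since all libraries read the same positions. Of all 8687 genes with both parts, 82.7% had the promoter below the body in all 6 libraries, with a median gap of 39.3 points. The small gaps of Grin2c and Grin2d depended on the summary used, because with medians over sites they were 0.104 and -1.19 points.

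The far ends of the genes separated the GluN2 subunits. The last coding exon of the transcript with the longest coding sequence, which in these genes encodes much of the intracellular C-terminal tail to which scaffold and signalling proteins bind, averaged 3.33% in Grin2c (51 sites) and 3.37% in Grin2d (49 sites). In Grin2b it averaged 79.9% (5 sites). At the only site measured in that exon of Grin2a the level was 82.1%, and in the last coding exon of Grin3b it was 67.9% (7 sites).

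Single libraries lay between 2.91% and 3.73% for Grin2c and between 1.68% and 6.16% for Grin2d. They lay between 71.6% and 86.6% for Grin2b, between 56.7% and 100% for Grin2a and between 42.1% and 95.2% for Grin3b, so no library placed the exon of Grin2c or Grin2d near that of Grin2a, Grin2b or Grin3b. Grin1 and Grin3a had no site in this exon more than 1 kb from a start. The exon was chosen for description after its values had been seen, and the contrast between the genes was not tested. Of 1010 genes with at least 3 sites in a last coding exon away from starts, 26.5% averaged under 10% and 44.0% over 60%, with a median of 47.6%.

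**Figure D3:**
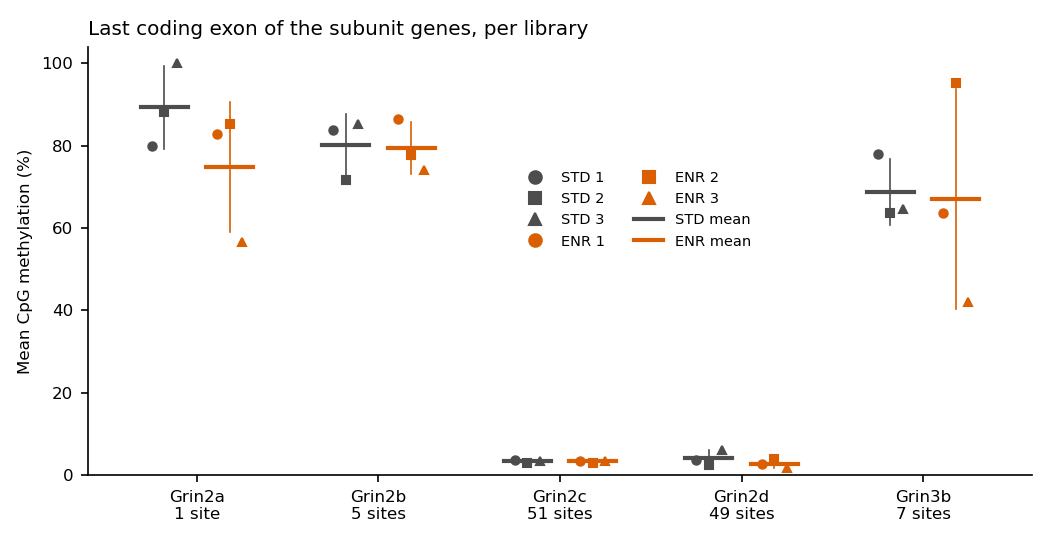
Mean CpG methylation (percent) of the measured sites in the last coding exon of 5 members, per library, with horizontal bars for group means and vertical lines for ± SD (n = 3). Grin2c and Grin2d sit between 1.68% and 6.16% in all libraries, whereas the lowest library of the other 3 genes is at 42.1%.

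Local CpG density moved with these levels. Body sites with at least 10 CpGs in the surrounding 201 bp averaged 8.24% over all members (185 sites) and 153 of them were under 10%, whereas body sites in sparser sequence averaged 45.5% (142 sites) and 36 of them were under 10%. The same split gave 16.5% and 50.3% over the body sites of all genes. Within Grin2c the dense body sites averaged 5.66% (85 sites) and the sparse ones 40.9% (14 sites), and within Grin2d 3.73% (60 sites) and 25.2% (29 sites). Grin3b and Grin2b did not follow this division. The 7 body sites of Grin3b were all in dense sequence and averaged 67.9%, and the only dense body site of Grin2b was at 85.6%, against 46.5% over its 68 sparse ones. The 17 body sites of Grin2a and the 12 of Grin3a all lay in sparse sequence. The part of CpG density in the difference between the genes was not tested.

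Inside the genes, the level changed over short distances. In an intron of Grin2b, the low stretch of 7 sites printed above had library means from 0 to 4.29%, and the next measured stretch, 646 bp away, had library means from 22.9% to 72.2% over 4 sites. The second stretch was above the first by 71.5, 47.8 and 39.4 percentage points in STD 1 to 3 and by 22.2, 67.7 and 23.9 points in ENR 1 to 3. The highest stretch of Grin2b was also intronic (chr6:136060173-136060356) and averaged 96.0% over 6 sites. In Grin2c, 3 intronic sites (chr11:115255525-115255562) averaged 94.5%, while the coding stretches on either side averaged 3.33% over 51 sites and 9.15% over 34. In Grin2d, 7 intronic sites (chr7:45849420-45849548) averaged 84.5%. Towards the end of the gene, 2 further intronic sites averaged 11.3% and the coding stretches 3.32% and 3.40%, and towards the start the next stretches averaged 16% and 7.88%.

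In Grin3a the 3 stretches around the gene start averaged 2.04%, 1.47% and 0.521%, and the intronic stretch at chr4:49697128-49697164 averaged 97.0%. In Grin3b the sites just upstream of the start (451 to 96 bp before it) averaged 19.8% and the first coding stretch 0.973%. Grin2a averaged 2.13% at its start-proximal stretch and 74.8% at the intronic stretch chr16:9718185-9718348, where single libraries ranged from 50.1% to 93.6%. In Grin1 the 3 measured stretches averaged 9.52%, 13.2% and 5.74%, the highest being 8 sites in UTR and coding sequence near the end of the gene (chr2:25291971-25292105).

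The housing groups were then compared, which was the question of the study. Over whole gene windows, 6 of the 7 members were lower and 1, Grin2c, was higher in ENR, and none was called. The median difference of the members was -0.735 percentage points, and over 22955 genes 57.6% were lower with a median of -0.192. In limma over all genes (22934 tested), 0% of windows had an adjusted p under 0.05, although 886 had an unadjusted p under 0.05, and the smallest adjusted p was 0.939. The groups overlapped in all 7 members, against 5.42% of all windows with non-overlapping groups lower in ENR and 3.04% higher. In tissue of mixed cell types, a change in the shares of cells and a change of methylation within cells cannot be told apart.

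Grin1 differed most. Its window, which holds body sites only, was at 18.3%, 7.33% and 8.97% in STD 1 to 3 and at 7.79%, 7.33% and 5.25% in ENR 1 to 3. STD 1 alone was high, and the other 2 STD libraries lay among or just above the ENR libraries. STD averaged 11.6% ± 5.94 and ENR 6.79% ± 1.35 (SD, n = 3 each), a difference of -4.76 points (p = 0.3 in an exact permutation test, two-sided, which cannot go below 0.1). Without STD 1 the difference was -1.36 points. STD 1 was the highest library at 17 of the 34 Grin1 sites, and its window exceeded the mean of the other 5 libraries by 11.0 points, more than in 97.0% of genes. The median of that excess over all genes was 0.42 points.

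The windows of the other members differed by less. Grin2b averaged 32.0% ± 2.47 in STD and 31.2% ± 3.36 in ENR (SD, n = 3 each), and Grin2a went from 14.8% ± 0.843 to 14.1% ± 2.66. Grin2c went from 7.80% ± 0.474 to 8.08% ± 1.17 and Grin2d from 10.1% ± 0.870 to 9.36% ± 1.36. The GluN3 genes went from 17.3% ± 0.420 to 16.7% ± 0.953 (Grin3a) and from 19.4% ± 2.66 to 17.7% ± 5.90 (Grin3b). The Grin3a difference of -0.614 points was -0.0986 points without ENR 3 and -1.04 points without ENR 2. The exact permutation tests of these 6 genes gave p from 0.4 to 0.9, and each difference was smaller than the larger of the 2 group SDs.

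At promoters, 3 members were lower and 3 higher in ENR, and without STD 3, or without ENR 3, 1 was lower. Grin2a was the only one whose groups did not overlap. It was at 4.13%, 3.41% and 4.39% in STD 1 to 3 and at 4.52%, 4.50% and 4.58% in ENR 1 to 3, and the highest STD library was thus just below the lowest ENR library. The means were 3.98% ± 0.509 (SD, n = 3) and 4.54% ± 0.0434 (SD, n = 3), a difference of 0.560 points (exact permutation p = 0.1, the smallest possible, and limma adjusted p = 0.998), and without STD 2 it was 0.275 points. Of all 19240 promoters, 3.79% had non-overlapping groups and were higher in ENR and 5.65% were lower. limma called 0% of 19204 promoters, with 851 at an unadjusted p under 0.05. The other promoter differences ran from -1.76 points (Grin3b, -2.73 without STD 2 and -1.24 without STD 3) to 0.961 points (Grin2c, 0.367 without ENR 1), with exact permutation p from 0.2 to 1.

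All 7 gene bodies were lower in ENR, with differences from -5.72 points in Grin2a to -0.0507 points in Grin2c, and none was called. Over all genes 61.0% of bodies were lower, with a median of -0.755 points. limma called 0% of 12278 bodies, 415 of them with an unadjusted p under 0.05, and non-overlapping groups were found in 5.29% (lower in ENR) and 2.30% (higher) of 12285 bodies but in no member. The number of lower bodies depended on ENR 3 and on STD 1. ENR 3 was the lowest of the 6 in all 7 bodies and at Grin2a stood at 36.0%, while ENR 1 and 2 were at 60.1% and 56.9% and STD 1 to 3 at 55.5%, 63.3% and 51.4%. Without ENR 3, 3 of the 7 bodies and 2 of the 7 windows were lower in ENR, and the body difference of Grin2a was 1.80 points. The bodies of Grin1, Grin2d and Grin3a stayed lower, Grin2d by -0.0758 points (-0.878 with all libraries) and Grin3a by -1.19 points (-3.11 with all libraries). Without STD 1, 4 of the 7 bodies were lower in ENR. ENR 3 was also low across the series, with a mean of 37.6% over sites whose overall mean lay between 20% and 80%. STD 3 was second lowest there at 43.6%, and the remaining libraries had 50.9% to 52.3%. The part of ENR 3 in the body differences cannot be told apart from that of housing with 3 mice per group.

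Among the gene bodies the widest spread inside a group was at Grin3b, whose 7 body sites lie in its last coding exon, with 77.9%, 63.7% and 64.6% in STD 1 to 3 and 63.6%, 95.2% and 42.1% in ENR 1 to 3. ENR held both the highest and the lowest library there, and the group means of 68.8% ± 7.94 and 67.0% ± 26.7 (SD, n = 3 each) differed by -1.78 points (exact permutation p = 0.8). The body minus promoter gap was smaller in ENR in all 6 members, with differences from -6.28 points in Grin2a to -0.0213 points in Grin3b and exact permutation p from 0.3 to 1. Without STD 1, and also without ENR 3, the gap was smaller in 3 of the 6.

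Of the 69 stretches in these genes 48 had at least 3 sites, and 27 of these were lower and 21 higher in ENR. The groups did not overlap in 1 of the 48, against 5.33% of all 71596 stretches lower in ENR and 3.45% higher. limma called 0% of 71381 stretches, 2853 of which had an unadjusted p under 0.05, and none of the 48 reached that. The non-overlapping stretch was the Grin1 stretch printed above, from 7636 bp downstream of the gene start. Of its 15 sites 13 lay in exons of noncoding transcripts only, and the rest in coding sequence. The stretch was at 21.3%, 7.26% and 11.4% in STD 1 to 3 and at 5.33%, 6.87% and 5% in ENR 1 to 3. STD 1 was again the highest, and the lowest STD library lay just above the highest ENR library. The means were 13.3% ± 7.21 and 5.73% ± 0.995 (SD, n = 3 each), a difference of -7.58 points (exact permutation p = 0.1, limma adjusted p = 1), and without STD 1 it was -3.59 points.

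Among the 48 stretches with at least 3 sites, the one with the largest difference was intronic in Grin2b (chr6:136011989-136012004, 3 sites). It was at 67.2%, 69.7% and 100% in STD 1 to 3 and at 89.3%, 49.9% and 28.1% in ENR 1 to 3, so the groups overlapped, ENR 1 lying above STD 1 and STD 2. The difference of -23.2 points (exact permutation p = 0.4) was -9.37 points without ENR 3 and -40.0 points without ENR 1.

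**Figure D4:**
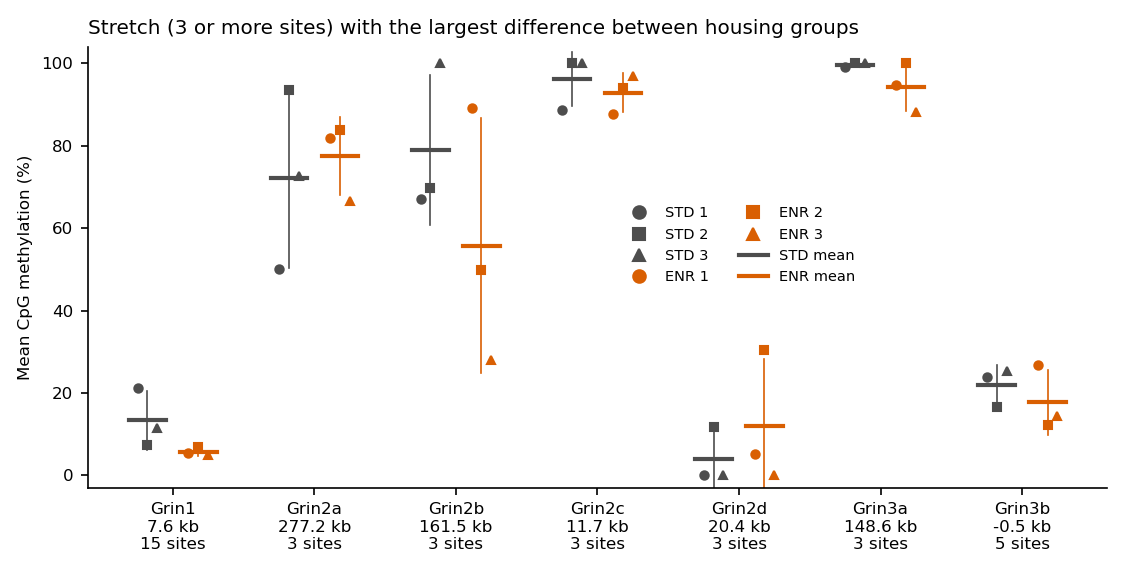
Mean CpG methylation (percent) per library of the stretch with the largest difference between housing groups in each member, among stretches of at least 3 sites, with its distance from the gene start and its number of sites under the gene name, bars for group means and vertical lines for ± SD (n = 3). The Grin1 groups do not overlap, with STD 1 at 21.3%, and in the other 6 genes they overlap.

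At single sites, 13 of 578 (2.25%) differed by more than 25 percentage points, 8 lower and 5 higher in ENR. Of all sites measured, 1.23% were lower and 0.706% higher by that much. Grin2b held 8 of the 13, Grin2d 2, and Grin2a, Grin2c and Grin3a 1 each, with none in Grin1 or Grin3b, and 11 of the 13 were intronic. The site nearest above the limit (25.8 points) and the site nearest below it (-24.5 points) were both in Grin2b. The groups did not overlap at 22 member sites (3.81%), 17 lower and 5 higher, against 3.99% of all sites. Both conditions held at 4 sites (0.692%), against 0.81% of all sites, so neither count of non-overlapping sites exceeded the background. The counts over 25 points moved with single libraries. Without STD 1, STD 2 or ENR 1, 8 sites were higher in ENR, and without ENR 3, 10 were. Without ENR 1, ENR 2 or ENR 3, 17, 13 and 5 sites were lower. limma on 615152 sites called 0% of them, with 16498 at an unadjusted p under 0.05, among them 15 member sites, and the smallest adjusted p of a member site was 0.852. The paper did report CpGs changed by ENR in these mice, with its own test and the same limit of 25 points. That test uses read numbers and could not be run here, so the 0% holds for limma on percentages only.

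**Figure D5:**
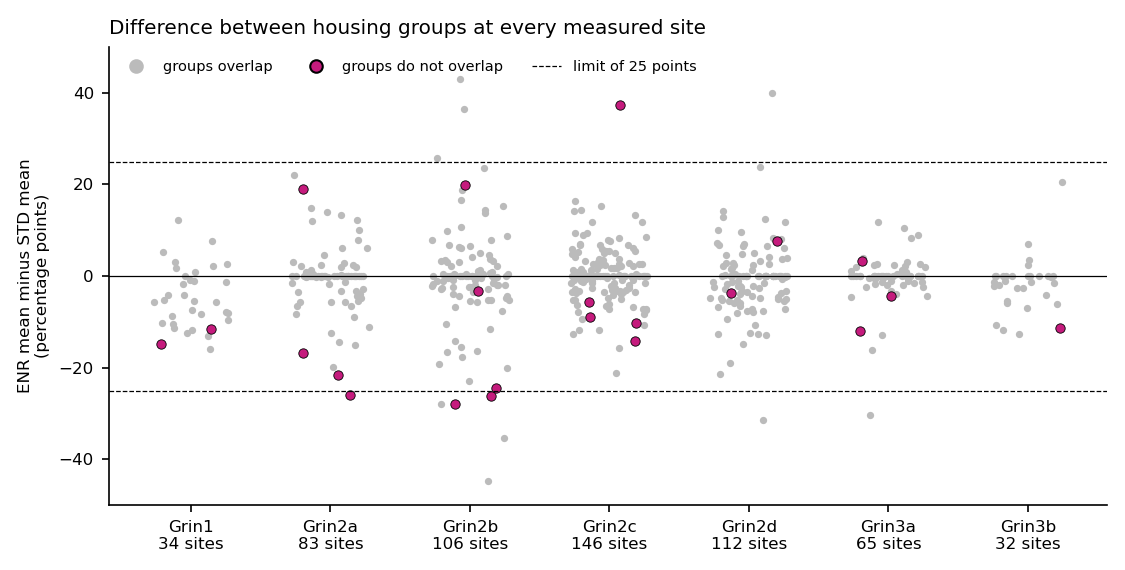
Difference of group means (ENR minus STD, percentage points) at each of the 578 sites, by gene, with dashed lines at the limit of 25 points. Dark points mark the 22 sites whose groups do not overlap, and 4 of them, in Grin2a, Grin2b and Grin2c, lie outside the dashed lines.

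The site with the largest difference among the non-overlapping sites of each gene is printed with 30 bases in gene orientation, its CpG in capitals, to show what sequence these sites lie in. They were selected because their groups do not overlap, and the share of such sites in the family (3.81%) was close to that over all sites (3.99%), so their values are a description. Distances are from the gene start and coordinates are those of the printed bases.
Grin1 (chr2:25311520-25311549, exon of a noncoding transcript, 7652 bp): ggtctcggtgtttgCGagctccaggtacgt
Grin2a (chr16:9853797-9853826, intron, 141748 bp): aatgggaggtcagcCGgagagaaagagagc
Grin2b (chr6:135961558-135961587, intron, 211939 bp): tgacacccaaggacCGgagttccatccctg
Grin2c (chr11:115258058-115258087, coding exon, 9171 bp): ctcccgtgaagaggCGgaggtgctcttcgc
Grin2d (chr7:45870010-45870039, UTR, 8354 bp): gcctccgcaatgtcCGgggcccaacttcca
Grin3a (chr4:49845676-49845705, exon of a noncoding transcript, 54 bp): ctgggcgaaaagccCGgcagaaaaaggaag
Grin3b (chr10:79970604-79970633, 96 bp upstream): tcaataatgttgacCGggctggagaacagg

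The largest of these differences was in Grin2c, at 31.2%, 37.5% and 45.5% in STD 1 to 3 and 72.7%, 90.0% and 63.6% in ENR 1 to 3. The means were 38.1% ± 7.12 and 75.5% ± 13.4 (SD, n = 3 each), a difference of 37.4 points. The cytosine on the other strand of the same CpG did not separate the groups, with 25%, 73.0% and 32.0% in STD and 18.2%, 72.7% and 50% in ENR, a difference of 3.65 points.

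The intronic Grin2b site was at 47.9%, 32.4% and 19.2% in STD 1 to 3 and at 13.6%, 2.13% and 0 in ENR 1 to 3. Its difference was -27.9 points, with every STD library above every ENR library. The Grin2a site was at 91.9%, 84.6% and 100% in STD and at 75.5%, 80.2% and 42.9% in ENR, a difference of -26.0 points in which ENR 3 was again the lowest library. Neither of these CpGs was measured on its other strand.

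At 2 sites no methylated read was listed in any ENR library. The Grin1 site was at 16.3%, 8.22% and 20% in STD 1 to 3 and the Grin3b site at 20.7%, 7.06% and 6.48%. The promoter site of Grin3a was at 14.1%, 4.94% and 18.6% in STD and at 0, 0 and 1.89% in ENR, a difference of -11.9 points, whereas its other strand differed by -0.595 points. In the Grin2d site the ENR libraries were higher (15.4%, 8% and 9.09% against 6.45%, 2.82% and 0), and the other strand differed in the opposite direction by -9.47 points. None of these 7 sites was called.

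Where both strands of a member CpG were measured (89 CpGs), the strands differed in the median by 0 to 4.65 percentage points within a library, the largest value being that of STD 1, and by more than 25 points at 2 to 5 CpGs per library.

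Genes that act with the NMDA receptor were taken from a list of 20, which includes the scaffold genes Dlg1 to Dlg4, the kinases Camk2a, Camk2b, Src and Fyn, and the co-agonist genes Srr and Slc6a9. Of 20 measured windows 12 were lower and 8 higher in ENR, with a median of -0.409 points, and none was called. Neto1, an auxiliary protein bound to NMDA and kainate receptors, was the only partner whose groups did not overlap, at 1 of 20 windows and 1 of 18 bodies, both higher in ENR. Over all genes 3.04% of windows and 2.30% of bodies were of that kind, and a single gene gives no share to set against these. Its window was at 18.3%, 19.6% and 19.9% in STD 1 to 3 and at 20.7%, 21.3% and 21.2% in ENR 1 to 3, so all ENR libraries were higher. The difference was 1.83 points, with a limma adjusted p of 1.00. Its body went from 67.7% ± 1.34 to 73.9% ± 2.78 (SD, n = 3 each, 10 sites). Groups overlapped at all 20 partner promoters, while over all genes 5.65% of promoters had non-overlapping groups lower and 3.79% higher in ENR.

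The other ionotropic glutamate receptor genes, of the AMPA and kainate classes, had 6 of 9 windows lower in ENR (median -0.398 points), and the metabotropic ones had 7 of 8 (median -0.888 points). Among marker genes of other cells of the tissue, windows were lower in ENR for 5 of 5 astrocyte genes, 5 of 6 microglial genes, 5 of 7 oligodendrocyte genes and 3 of 5 interneuron genes. Over all genes 57.6% of windows were lower. Groups did not overlap at 2 astrocyte, 1 microglial and 1 oligodendrocyte window, all lower in ENR, and at no interneuron window. Of all windows 5.42% were of that kind. The mean over the astrocyte windows was 42.3% to 42.7% in STD libraries and 38.3% to 39.8% in ENR libraries. The corresponding ranges were 56.5% to 63.3% and 48.5% to 65.4% for microglial, 37.5% to 43.8% and 35.8% to 40.6% for oligodendrocyte, and 18.1% to 24.4% and 18.3% to 24.2% for interneuron genes. None of these genes was called, and the part of cell composition in the NMDA receptor values was not tested.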

How the data were processed

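DNA methylation was measured by RRBS in 6 dentate gyrus libraries (3 STD, 3 ENR), grouped by their GEO labels. The authors trimmed reads with Trim Galore and aligned them to mm10 with Bismark. With methylKit they kept cytosines covered by 10 or more reads and under an upper limit of coverage. Such coverage was required in at least 3 samples of each group. The table deposited by the authors gives the percent of methylated reads per cytosine and library for 890041 sites, and no per-library column was left out (0 unused). It holds no read numbers, so depth per site is unknown and the test of the study on reads could not be run.

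Sites were assigned with GENCODE M21 to gene windows (1 kb upstream of the gene start to the gene end), promoters (within 1 kb of the start of any transcript), bodies (other sites of the window) and stretches (gaps of at most 200 bp), and unweighted means were taken where at least 3 sites were present. limma 3.58.1 in R 4.3.3 (lmFit, eBayes with a variance trend) was fitted over all features of each kind with Benjamini-Hochberg adjustment. A call needed an adjusted p under 0.05, and for sites also a difference over 25 percentage points. The procedure was tested on simulated data. Features with the same value in all libraries could not be fitted. Single features were compared between groups by exact permutation (two-sided), and promoter with body by exact sign-flip permutation. All 7 members were named. In each, the site with the largest difference among non-overlapping sites and the stretches nearest the start, highest and most different were named, as were partner genes with non-overlapping groups. Members were found by symbol alone, but the choice of this gene family and of the lists was made with earlier results of these data known. The split by CpG density and the last coding exons were described after seeing the values. Alternatives changed the scale, variance model, normalization, strand handling, summary over sites, shared sites, site minimum, promoter definition, limit, gap and libraries used.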

Additional observations from a re-analysis of the deposited data

How the results depend on the processing

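Over the 18 alternative settings fitted with limma, each at the levels to which it applies, limma called no member and no other feature, except that the arcsine scale called 1 promoter of another gene. The read number behind each percentage is unknown, so sparsely and deeply read sites had equal weight, and 3 mice per group cannot give an exact permutation p under 0.1. Promoters lay below bodies in every library in all members that could be compared, 5 or 6 by setting, except with medians over sites, where this held for 4 and the mean gap was 0.104 points for Grin2c and -1.19 for Grin2d. The causes of the changes listed here were not tested.

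The number of windows lower in ENR (6) was 3 with medians over sites, and the number of promoters lower in ENR (3) was 1 with medians and 1 with quantile normalization. With limits of 20 and 40 points, 14 and 1 sites were lower and 10 and 1 higher in ENR. Leaving out 1 library at a time gave 2 (without ENR 3) to 7 windows, 1 (without STD 3 or ENR 3) to 4 promoters and 3 to 7 bodies lower in ENR, 3 to 6 smaller gaps, and 5 to 17 sites lower and 4 to 10 higher by over 25 points.

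None of the following differences was called in any setting, and all changed sign. On the arcsine scale the Grin3b body and its stretch from 79976942 were at 0.0133 and its gap at 0.0554 (radians). Quantile normalization gave 0.0468 points for the Grin2b window, 0.357 and 0.201 for the Grin2d and Grin3a promoters, 0.410 and 2.16 for the Grin2c and Grin3b bodies, 2.16 and 0.249 for the stretches Grin3b from 79976942 and Grin2a from 9995626, and 3.59 for the Grin3b gap. Averaged strands gave -0.263 and 0.0138 for the Grin2b and Grin3a promoters, 0.218 for the Grin2c body and 0.244 for the Grin3b gap. Medians gave 0.370 for the Grin2b body, 0.370 for its gap and 1.14 for the Grin2d gap. Without shared sites the Grin3a window was at 0.0508, its body at 0.575, its gap at 0.623 and the Grin2b promoter at -0.637. With the gene record start only, the Grin2c body was at 0.0208.

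Leaving out 1 library gave ranges that crossed 0. Windows ran from -1.66 to 0.794 (Grin2a), -1.93 to 1.11 (Grin2b), -0.158 to 0.938 (Grin2c), -1.21 to 0.0478 (Grin2d) and -4.53 to 1.34 (Grin3b). Promoters ran from -0.204 to 0.471 (Grin2b), -1.56 to 0.792 (Grin2d) and -0.146 to 0.148 (Grin3a). Bodies ran from -10.3 to 1.80 (Grin2a), -3.01 to 1.45 (Grin2b), -0.593 to 0.780 (Grin2c) and -15.9 to 10.6 (Grin3b). Gaps ran from -10.8 to 1.26 (Grin2a), -3.24 to 0.974 (Grin2b), -2.10 to 0.604 (Grin2d) and -14.6 to 11.9 (Grin3b). Stretches ran from -3.16 to 1.56 (Grin1 from 25291971), -5.63 to 16.1 and -1.71 to 0.301 (Grin2a from 9718185 and 9995626), -2.10 to 4.23 and -0.241 to 0.827 (Grin2b from 136060173 and 136172537), -10.7 to 0.236, -1.40 to 13.8 and -0.131 to 1.30 (Grin2d from 45849420, 45857897 and 45873188) and -15.9 to 10.6 (Grin3b from 79976942).

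The labels give no pairing of STD and ENR mice. Deviations of same-numbered libraries correlated at 0.0602, 0.0348 and 0.135, and STD 2 correlated best with ENR 1 (0.0448), so the numbers were not taken to pair the samples. With the replicate number as a block, 0 windows, promoters, bodies, stretches and sites were called, 1152 windows had an unadjusted p under 0.05, and 6 windows, 3 promoters and 7 bodies of the members were lower in ENR.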
